A study of Cucumis sativus with 4 samples.

Results

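The genes described here differed between the wild-type axillary bud libraries of a cucumber RNA-seq study, with the libraries of plants silenced for CsBRC1 lying between them. A gene was taken when the mean of its 4 normalised values was at least 5, when its larger wild-type value was at least 2 times the smaller, and when both CsBRC1-RNAi values lay strictly between the wild-type values. Of 17770 genes in the table, 291 met these conditions, 130 of them higher in wild type 1 and 161 higher in wild type 2. All 4 values of each gene were used to choose it, so the levels and folds below describe the genes and carry no test.

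CsBRC1 is the cucumber relative of BRANCHED1, a transcription factor of the TCP family. In flowering plants BRANCHED1 acts inside the axillary bud, where signals that hold back branching, shade among them, converge on it, and its activity keeps the bud from growing out. The series is titled for a repression of CsPIN1b and CsPIN3 by CsBRC1. Both are auxin efflux carriers, membrane proteins that move this hormone out of cells.

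The wild-type group and the CsBRC1-RNAi group had 2 libraries each, all from lateral buds of 1 node position on plants 2 months old, raised in a growth chamber and then in a greenhouse. For all libraries the labels give days of 16 h at 25 °C and nights of 8 h at 18 °C. The RNAi plants carried a silencing construct built on 585 bp of CsBRC1 coding sequence. The labels' protocols name an empty vector as the transformation control, but the control libraries are labelled wild type and are called so here. The sources used here do not give the promoter of the construct or the number of transgenic lines. They also do not say if replicate libraries stand for separate plants or for pools, so a difference between them may be technical. In whole buds, fewer cells of a type and less RNA per cell cannot be told apart. The table gives gene identifiers without names, and 0 of the 291 identifiers matched the RefSeq cucumber gene table. The roles of these genes, the bud markers, the level of CsBRC1 and the gene lists for cell types were therefore not analysed here, and the genes are described by level, pattern and place. The libraries held between 26912976 and 32385236 recovered reads, and 1 read was worth at most 0.0392 on the scale of the normalised values.

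A difference of at least 2-fold between the wild-type libraries was found in 1314 of 14844 genes with a mean of at least 5 (8.85%), of which 682 (4.59%) were higher in wild type 1 and 632 (4.26%) in wild type 2. Most of these genes were not between. Of the 682 genes higher in wild type 1, both CsBRC1-RNAi values were at or above wild type 1 in 411 (60.3%), between the wild-type values in 130 (19.1%) and at or below wild type 2 in 47 (6.89%). Of the 632 genes higher in wild type 2, both CsBRC1-RNAi values were at or below wild type 1 in 274 (43.4%), between in 161 (25.5%) and at or above wild type 2 in 54 (8.54%). In both directions the commonest place of the CsBRC1-RNAi values was thus beyond wild type 1, on the side away from wild type 2. In the remaining 237 genes the CsBRC1-RNAi libraries fell in different places. With the genotypes exchanged, 559 genes (3.77%) were at least 2-fold apart between the CsBRC1-RNAi libraries, and in 132 of them (23.6%) both wild-type values lay between. Those 132 were mostly higher in CsBRC1-RNAi 2, with 100 in that direction and 32 in the other.

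**Figure D1:**
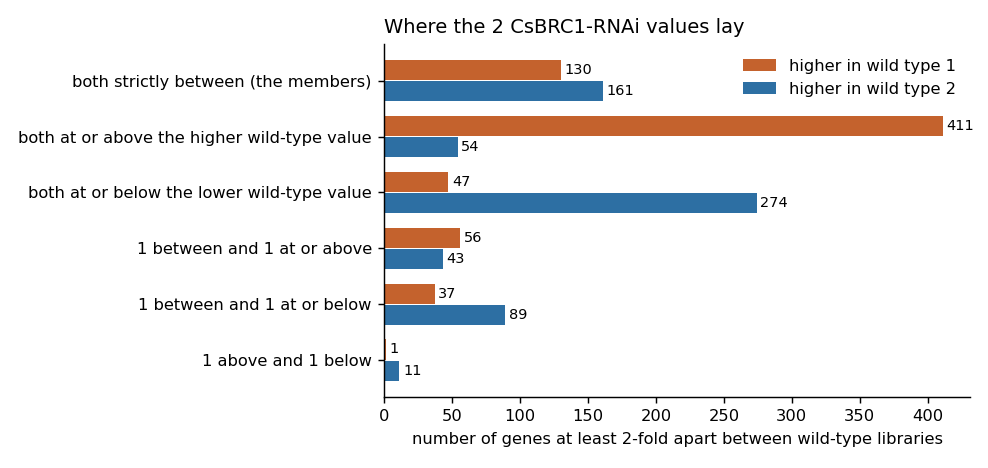
Number of genes at least 2-fold apart between the wild-type libraries (x axis), by where the 2 CsBRC1-RNAi values lay (rows) and by the higher wild-type library (colour). The 130 and 161 genes with both CsBRC1-RNAi values between are those described here, and the longest bars are the 411 and 274 genes whose CsBRC1-RNAi values lay beyond wild type 1.

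The sets differed in how far the wild-type libraries were apart. Among genes higher in wild type 1, the fold had a median of 2.35 (quartiles 2.13 and 2.76) and ended at 7.28. Among genes higher in wild type 2 that had at least 1 read in wild type 1, the median was 2.7 (quartiles 2.25 and 4.55) and the largest fold was 612. In the first set 103 of 130 genes (79.2%) were under 3-fold apart, 13 (10%) were at least 4-fold apart and 0 reached 8-fold. In the second set 91 of 161 (56.5%) were under 3-fold, 46 (28.6%) at least 4-fold, 21 at least 8-fold and 12 at least 16-fold apart. The same lean was seen whatever the CsBRC1-RNAi values were. Over all genes with a mean of at least 5, 42 were at least 4-fold higher in wild type 1 and 133 in wild type 2, and at 8-fold the counts were 10 and 44. The chosen genes made up 0 of those 10 and 21 of those 44 (47.7%).

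**Figure D2:**
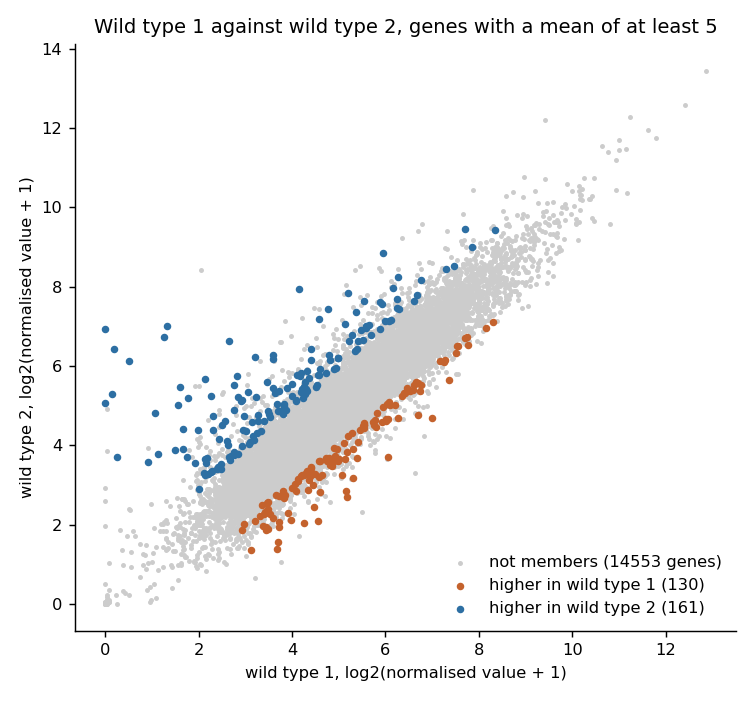
Level of each gene in wild type 1 (x axis) and wild type 2 (y axis), both as log2(normalised value + 1), for the 14844 genes with a mean of at least 5. The 161 genes higher in wild type 2 (blue) reach much farther from the diagonal than the 130 higher in wild type 1 (orange), and 6 of the blue points lie at the left edge, near 0 in wild type 1.

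Most of the chosen genes had low to middle levels. The genes higher in wild type 1 had a median normalised value of 28.6 in wild type 1 and 11.1 in wild type 2, with 19.1 and 18.8 in CsBRC1-RNAi 1 and 2. For the genes higher in wild type 2 the medians were 11.8 in wild type 1, 40.4 in wild type 2, while CsBRC1-RNAi 1 and 2 had 22.8 and 20.3. In both sets the CsBRC1-RNAi medians were close to each other. Their place inside the wild-type range follows from the rule. A mean between 5 and 10 was found in 25.4% of the first set and 20.5% of the second, against 14.2% of all genes with a mean of at least 5. A mean of at least 100 was found in 12 and 19 genes, which is 9.23% and 11.8% against 15.3%. The values of the first set summed to 0.73% of the column total in wild type 1 and 0.289% in wild type 2, with 0.401% and 0.439% in CsBRC1-RNAi 1 and 2. The second set took 0.456% in wild type 1, 1.33% in wild type 2, and 0.6% and 0.641% in the CsBRC1-RNAi libraries.

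**Figure D3:**
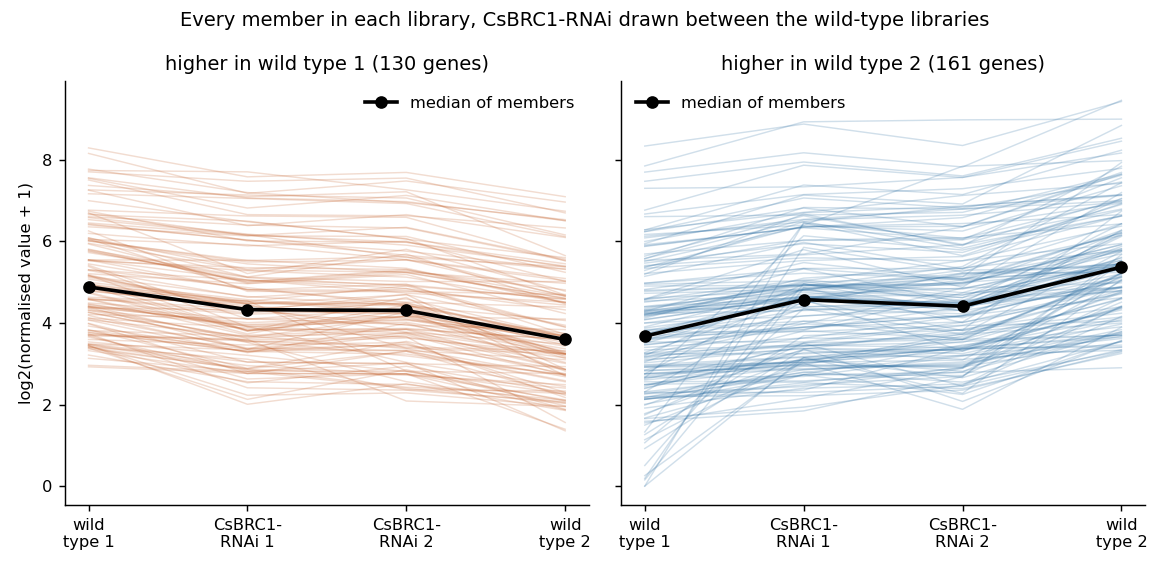
Each chosen gene as 1 line, with log2(normalised value + 1) on the y axis and the libraries on the x axis, the CsBRC1-RNAi libraries drawn between the wild-type libraries. The black medians step down from wild type 1 to wild type 2 in the left panel (130 genes) and up in the right panel (161 genes), where a few lines rise steeply from near 0 in wild type 1.

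Between the wild-type values, the place of the CsBRC1-RNAi values varied from gene to gene. It is given as the percent of the way from wild type 1 to wild type 2 on the scale of log2(value + 1). In the genes higher in wild type 1 the median place was 44.9% for CsBRC1-RNAi 1 (quartiles 25.6 and 67.9) and 47.1% for CsBRC1-RNAi 2 (22.4 and 65.9). In the genes higher in wild type 2 it was 39.8% (15.8 and 58.9) and 36% (18 and 67.3). Both CsBRC1-RNAi values were nearer wild type 1 in 52 genes of the first set (40%) and 84 of the second (52.2%), and both were nearer wild type 2 in 35 (26.9%) and 37 (23%). In the other 43 and 40 genes the CsBRC1-RNAi libraries were nearer different wild-type libraries.

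The CsBRC1-RNAi libraries were usually close to each other in these genes, as the rule requires them to be when the wild-type values are close. Their fold had a median of 1.16 in the genes higher in wild type 1 and 1.22 in the genes higher in wild type 2, against 1.14 over all genes with a mean of at least 5. They were nevertheless at least 2-fold apart in 4 and 8 genes (3.08% and 4.97%), near the 3.77% of all such genes. For these 12 genes the variation was thus not confined to the wild-type libraries. CsBRC1-RNAi 1 was the higher of the pair in 71 of 130 genes (54.6%) and 70 of 161 (43.5%), against 51.6% of all genes with a mean of at least 5.

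**Figure D4:**
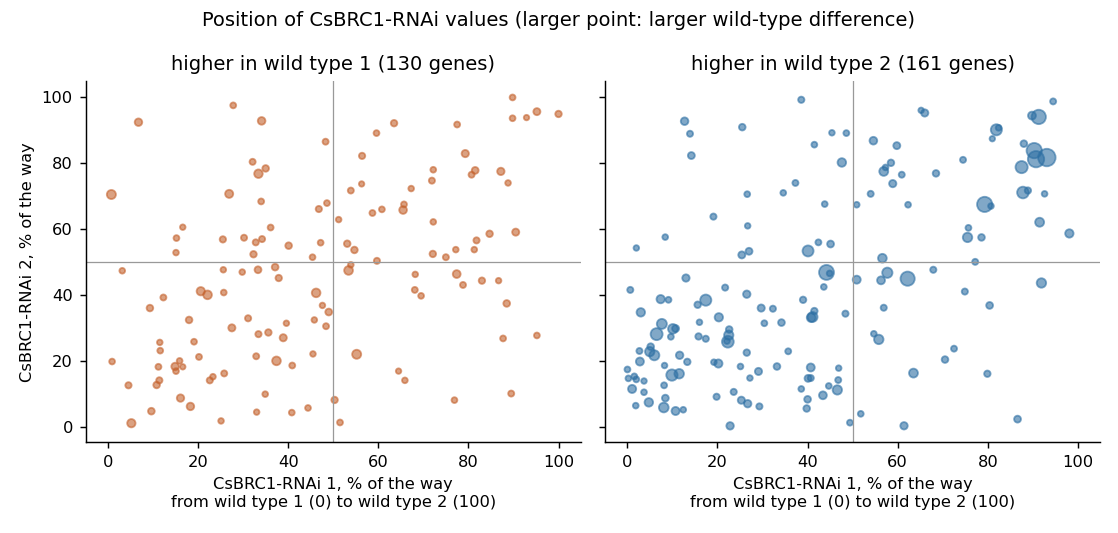
Place of CsBRC1-RNAi 1 (x axis) and CsBRC1-RNAi 2 (y axis) for each chosen gene, as the percent of the way from wild type 1 (0) to wild type 2 (100) on the scale of log2(value + 1), with larger points for larger wild-type differences and grey lines at 50. In the right panel 84 of 161 points lie in the lower left, nearer wild type 1, and several of the largest points lie in the upper right, nearer wild type 2.

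The clearest differences were in genes that were all but silent in wild type 1 alone. Csa7G272100 had a value of 0 in wild type 1, 121 in wild type 2, 86.5 in CsBRC1-RNAi 1 and 49.3 in CsBRC1-RNAi 2. Its reads numbered 0, 3406, 2205 and 1500. It was well expressed in all libraries but wild type 1. With the count of 0 set at 3 reads, it was 1440-fold higher in wild type 2, a fold given without an interval.

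Csa7G428920 had 0.14 in wild type 1 against 85.5 in wild type 2, and its CsBRC1-RNAi values were 56.9 and 37.2. With 5 reads in wild type 1 against 2414, it was 612-fold higher in wild type 2 (exact 95% interval 262 to 1890, for counting error only). Again 1 library stood apart. On the scale of log2(value + 1), the CsBRC1-RNAi values were 90.7% and 81.1% of the way to wild type 2. As the wild-type libraries were so unequal, the wild-type mean of 42.8 ± 60.4 (SD, n = 2) was close to the CsBRC1-RNAi mean of 47.1 ± 13.9 and had an SD larger than itself.

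Wild type 1 was under 0.5 in 6 of the 161 genes higher in wild type 2, a limit set after the values were seen, and wild type 2 was under 0.5 in 0 of the 130 genes of the other set. Besides the genes named above, these were 4 genes on chromosomes 2, 4 and 5. The one on chromosome 4 had values of 0.42, 68.7, 30.1 and 18.6, with the wild-type libraries first and the RNAi libraries after them. A pair on chromosome 5 had 0.112, 38.4, 27.9 and 30.8 in the first gene, and 0.196, 12.1, 7.49 and 9.3 in the second. These genes lay next to each other in the numbering and were near 0 together in wild type 1. The gene on chromosome 2 had 0 reads in wild type 1 and values of 32.5, 7.89 and 3.84 in the others, so that its CsBRC1-RNAi values were well below wild type 2.

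The 12 genes at least 16-fold apart were all higher in wild type 2, and the CsBRC1-RNAi values split them. On the scale of log2(value + 1), both CsBRC1-RNAi libraries were nearer wild type 2 in 8 of the 12. Both were nearer wild type 1 in 3, and in 1 they were divided. On the plain values some of the 8 would be placed otherwise, as the middle of that scale lies well below the wild-type mean. A gene among the 3, on chromosome 1, had values of 1.4 in wild type 1, 106 in wild type 2, while CsBRC1-RNAi 1 and 2 had 11.9 and 13.2. The fold between its wild-type values was 75.7 (exact 95% interval 57.3 to 102). On the scale of log2(value + 1), its CsBRC1-RNAi values were 44.2% and 46.8% of the way from wild type 1 to wild type 2. That is near the middle of the range on that scale only, as both plain values were far below the wild-type mean of 53.7. Another of the 3, on chromosome 7, had 2.01, 43.7, 2.59 and 5.42 in the same order. There the places were 6.49% and 28.1%, and wild type 2 stood far above the other libraries.

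**Figure D5:**
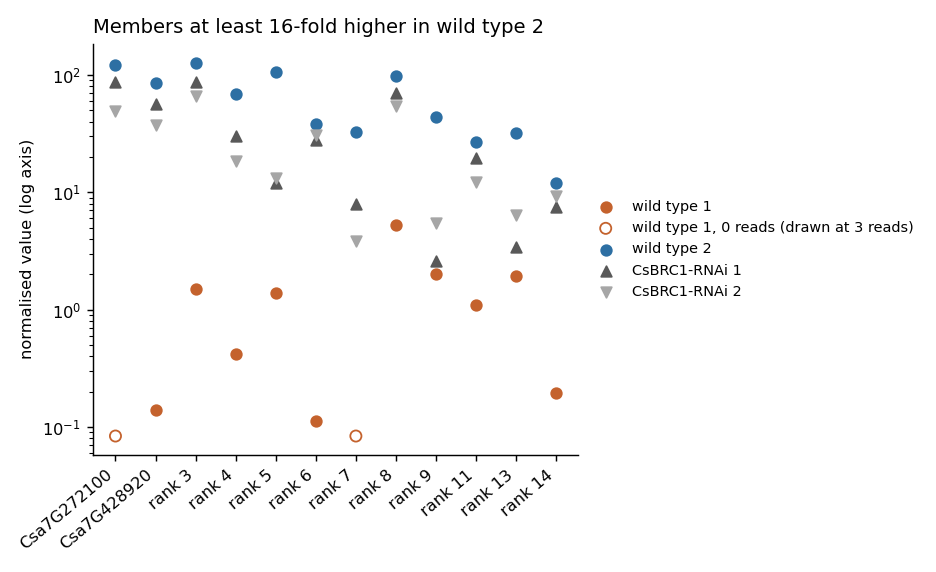
Normalised value (y axis, log scale) in each library for the 12 genes at least 16-fold higher in wild type 2 (x axis, ordered by their rank in the difference of log2 values), with open circles for 0 reads drawn at the level of 3 reads. Wild type 1 (orange) is at or under 5.29 in all 12 genes. On the scale of log2(value + 1), both CsBRC1-RNAi triangles are nearer wild type 2 (blue) than wild type 1 in 8 of them.

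In the other direction no gene was near silent, the lowest wild type 2 value being 1.56. The largest difference of log2(value + 1), 2.48, was that of Csa6G416850, with values of 22.7 in wild type 1, 3.26 in wild type 2, 22.4 in CsBRC1-RNAi 1 and 6.08 in CsBRC1-RNAi 2. It was 6.97-fold higher in wild type 1 (exact 95% interval 5.61 to 8.74), and a gene of lower level had the largest fold, 7.28. The CsBRC1-RNAi libraries were 3.69-fold apart in this gene, so each genotype had 1 high and 1 low library.

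Csa5G366670 had 35 in wild type 1 against 5.53 in wild type 2, and its CsBRC1-RNAi values were 13 and 23.7. It was 6.33-fold higher in wild type 1 (exact 95% interval 5.36 to 7.52), and the CsBRC1-RNAi values were spread between. The next largest in rank, on chromosome 1, had 65.8 and 12.2 in wild type 1 and 2, with 27.1 and 30 in the CsBRC1-RNAi libraries. There the CsBRC1-RNAi libraries were alike, near the middle of the wild-type range on the scale of log2(value + 1).

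Chosen genes were found on all 7 chromosomes, read from the digit in the identifier without a check against an assembly. Their share of the genes with a mean of at least 5 ran from 1.64% on chromosome 5 (32 of 1954) to 2.59% on chromosome 1 (56 of 2166), against 1.96% over all such genes. Genes with no chromosome in the identifier gave 3 of 58. Genes higher in wild type 2 outnumbered the others on each chromosome, with 19 and 18 on chromosome 4 at the least and 17 and 8 on chromosome 7 at the most. With plain CPM, a scaling under which the median gene moved by -0.20 on the log2 scale in CsBRC1-RNAi relative to wild type, the split over all chromosomes turned to 204 higher in wild type 1 and 95 higher in wild type 2.

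Some of the chosen genes were neighbours in the order of the identifiers. Only the 17770 genes with values were ordered, so genes without values may lie between neighbours. There were 7 pairs of adjacent genes that were both chosen, and in all 7 the direction was the same, 6 of them higher in wild type 2. The pairs held 13 genes, so that 4.47% of the 291 had a chosen gene next to them, against 3.16% of the other genes with a mean of at least 5 (460 of 14553). They included the pair on chromosome 5 described above and 3 genes in a row on chromosome 4. That run began with the gene at 0.42 in wild type 1, and the following genes had values of 59.5 and 188, and of 13.1 and 30.7, in wild type 1 and 2. The gene next to Csa7G428920 was also chosen, with 11 in wild type 1, 76.7 in wild type 2, while CsBRC1-RNAi 1 and 2 had 13.9 and 15.3. On the scale of log2(value + 1), its CsBRC1-RNAi values were nearer wild type 1, while those of Csa7G428920 were nearer wild type 2.

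The genes flanking the largest differences were looked at as well. The nearest genes outside the set on both sides of the 12 genes at least 16-fold apart numbered 22. Their ratio of wild type 2 to wild type 1 had a median of 0.955 and ran from 0.294 to 2.01. It was 2 or above in 1 gene, and in 1 other gene wild type 1 was at least 2-fold higher. Among all genes with a mean of at least 5, 8.85% were at least 2-fold apart. Chosen genes were passed over in picking the flanking genes, which by itself leaves out some large differences. Beside Csa7G272100 the flanking genes had values of 27.8 and 44.3 in wild type 1 and of 20.4 and 47.4 in wild type 2, so that the near silence in wild type 1 was seen in the single gene.

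None of these genes passed the test of CsBRC1-RNAi against wild type, an outcome that the choice of overlapping values favours and from which nothing is read. By limma with Benjamini-Hochberg adjustment over 17726 genes, 640 genes (3.61%) were called at an adjusted p under 0.05, and 0 of the 291 were among them. At an unadjusted p under 0.05 the limma counts were 5761 genes (32.5%) and 0 of the 291. The quasi-likelihood test of edgeR on the recovered reads called 422 genes (2.38%) and 0 of the 291. DESeq2 called 3917 genes (22.1%) and 0 of the 291, with 8 of them at an unadjusted p under 0.05 (34.1% of all genes). The median log2 fold change of CsBRC1-RNAi over wild type, on the scale of log2(value + 1), was 0.07 in the genes higher in wild type 1 and -0.21 in those higher in wild type 2, against -0.01 over all genes tested.

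The count of called genes over all genes changed whichever library was left out, and the fits without a wild-type library are given here. Without wild type 1, limma called 3531 genes (19.9%) and 76 of the 291, with 7297 genes (41.2%) and 161 of the 291 at an unadjusted p under 0.05. In CsBRC1-RNAi 22 of the 76 lay above wild type 2 and 54 below it, directions that the choice of the genes fixes once wild type 1 is left out. Without wild type 2 it called 0 genes (0%), with 4571 genes (25.8%) and 105 of the 291 at an unadjusted p under 0.05. Each of these fits has a lone wild-type library, assumed to vary like the CsBRC1-RNAi libraries. The rule sets that library beyond both CsBRC1-RNAi values, which by itself favours low p-values among the 291 genes. Nothing is therefore read from their counts in these fits.

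At the edge of the rule, the gene just inside the fold limit had values of 11.6 and 5.78 in wild type 1 and 2 (2.005-fold) in the set higher in wild type 1, and the gene just outside had 24.9 and 12.5 (1.994-fold). In the set higher in wild type 2 they had 21.8 and 43.6 inside (2-fold) and 14.2 and 28.3 outside (1.998-fold). At the limit on the mean, the genes inside and outside had means of 5.039 and 4.911 in the first set and 5.031 and 4.669 in the second. Counting error was small next to the larger folds but not at the limit: the exact 95% interval of the fold lay wholly above 2 in 76 of the 130 and 122 of the 161 genes.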

How the data were processed

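RNA-seq was measured in 4 libraries of cucumber lateral buds. Per the submitters' processing notes, HISAT and HTSeq were used. Their versions, the genome build, the annotation and the handling of strand were not given in the sources used here. For each gene and library the authors deposited a normalised signal, named CPM. Every column's values (100%) were whole multiples of its smallest nonzero value (tolerance 1e-06), and so gave whole reads. The effective library sizes so implied equalled edgeR's TMM sizes. There were 0 columns from outside the series. The replicate libraries were distinct, with a chi-square per degree of freedom of 135 in wild type and 89.6 in CsBRC1-RNAi.

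The genes and the limits were chosen with earlier results of these data known. The rule used the deposited values. The genes named are the 2 with the largest difference of log2(value + 1) between the wild-type libraries in each direction; others are described without identifiers, because the files do not pair them with names. Counting intervals are exact 95% binomial intervals of the read ratio, and a count of 0 was set at 3 reads (0.0839 in wild type 1). They cover counting error only.

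The test of CsBRC1-RNAi against wild type used limma 3.58.1 (R 4.3.3) with a trended prior and no block. Values entered as log2(value + 1) for 17726 genes that reached 1 in 2 or more libraries, with Benjamini-Hochberg adjustment. It was checked on simulated data. Alternatives were other limits, scalings, pseudocounts, filters, a replicate block, left-out libraries, edgeR 4.0.16 and DESeq2 1.42.0. Same-numbered libraries were not treated as pairs.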

Additional observations from a re-analysis of the deposited data

How the results depend on the processing

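The counts of 130 and 161 genes, higher in wild type 1 and in wild type 2, follow from the limits and from the scaling. They became 356 and 299 with a fold of at least 1.5, and 13 and 46 with a fold of at least 4. With a mean of at least 1 the first became 200, and with the lower end of the counting interval at 2 or above it became 76. With plain CPM they became 204 and 95, of which 110 and 90 were among the original genes. Median-of-ratios scaling gave 127 and 169, of which 127 and 161 were among the original genes. Quantile normalization gave 130 and 172, of which 109 and 152 were among them. When only 1 CsBRC1-RNAi library had to lie between, the counts ran from 165 to 188 and from 220 to 234. The rule could not be applied without a wild-type library. The genes at least 8-fold higher in wild type 2 numbered 19 to 23 under the other scalings and 21 as deposited, against 0 or 1 in the other direction.

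The count of 0 called genes was also 0 with both other pseudocounts, no filter, median-of-ratios scaling, quantile normalization, edgeR, DESeq2 and the replicate block. The limma test was not run on plain CPM. Leaving out 1 library gave 0 to 76. The correlation of the replicate differences in both genotypes was 0.038 across genes, and the block raised the calls over all genes from 640 to 1561. The 6 genes near 0 in wild type 1 were 5 at a limit of 0.2, 7 at a limit of 1, and 2 when at most 3 reads were allowed. These limits, the 8-fold counts and the settings for single genes were chosen after seeing the data. Depth limited little, since 1 read was worth at most 0.0392.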

Other observations

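Near silence in a single library was looked for in all 17770 genes, with a value under 0.5 in 1 library and at least 5 in each of the other libraries, limits set after the values were seen. This held for 9 genes in wild type 1, 0 in wild type 2, 1 in CsBRC1-RNAi 1 and 0 in CsBRC1-RNAi 2. Of the 9 genes, 5 were among those described above, and 4 were not, because a CsBRC1-RNAi value exceeded that of wild type 2. On chromosome 4 such a gene had 1 read in wild type 1 and values of 29, 22.3 and 87.6 in wild type 2, CsBRC1-RNAi 1 and CsBRC1-RNAi 2. On chromosome 6 another had 1 read in wild type 1 and values of 13.6, 12.9 and 101. The remaining 2 genes, on chromosomes 1 and 3, had 0 reads in wild type 1, with values of 6.59, 7.77 and 7.85 in the first and 5.03, 12.7 and 36.6 in the second. The gene near silent in CsBRC1-RNAi 1 had 6 reads there and values of 17.6, 22.7 and 18 in wild type 1, wild type 2 and CsBRC1-RNAi 2.

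The lean towards wild type 1 depended on the limit. With a value of at least 1 in each of the other libraries, the counts were 51 in wild type 1, 37 in wild type 2, 46 in CsBRC1-RNAi 1 and 11 in CsBRC1-RNAi 2.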
